A study of Homo sapiens with 4 samples.

Results

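RAB3GAP1, MAP3K19, ZRANB3 and R3HDM1 are 4 adjoining genes on the long arm of chromosome 2, and the nucleosomes over them were examined in BE(2)C, a MYCN-amplified cell line established from a human neuroblastoma. The 4 genes, of 20163 protein-coding genes, were chosen from earlier results of these libraries, because they surround a 10-kb bin with fewer reads after MYCN knockdown (chr2:135870001-135880000, hg19). Cells had received a control siRNA (genotype labelled wild type, 2 libraries) or an siRNA against MYCN (labelled N-myc kd, 2 libraries), and the labels give 80 nM siRNA and a 6 h incubation for both groups, with DNA taken the next day, while the study's methods give a lower final amount of siRNA per volume. Micrococcal nuclease (MNase) had been used to cut the linker DNA of the chromatin, and the protected fragments were sequenced as read pairs. The nucleosomes of each library were listed separately, each with its dyad (the midpoint), its read count, and its fuzziness, which is the standard deviation (SD, in bp) of read midpoints around the dyad. From the start of MAP3K19 to the end of R3HDM1 (chr2:135722055-136482840, 760786 bp) 2058 of 10527010 nucleosomes were listed in control replicate 1, 2923 of 12120711 in control replicate 2, 2055 of 10677252 in knockdown replicate 1 and 2927 of 12178724 in knockdown replicate 2.

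The lists held from 147370973 to 242544884 reads, and both libraries numbered 2 were deeper than both numbered 1. A nucleosome over the 4 genes held a median of 9 reads in each library numbered 1 and 12 in each numbered 2. Since nucleosomes with fewer than 6 reads had been left out, a nucleosome missing from a list was not detectable at that depth, and it is not shown to be absent. The labels do not say that the 2 libraries of a group came from separate cultures, so the errors below measure the spread between these libraries only. MNase-seq does not measure MYCN transcripts, and the knockdown could not be checked in these files.

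A nucleosome wraps DNA around a histone core. Its position and occupancy depend on the DNA sequence, on transcription and on remodelling enzymes. RAB3GAP1 encodes the catalytic subunit of the complex that switches off the small GTPase RAB3, which guides the release of synaptic and secretory vesicles. MAP3K19 encodes a protein kinase of the MAP kinase cascades. ZRANB3 encodes a DNA translocase that remodels stalled replication forks, and R3HDM1 encodes a protein with an R3H domain, a fold that binds nucleic acids.

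The read excess in the RAB3GAP1 bin lay over 1 DNA repeat. A run of TTC units interrupted by TGC units covers chr2:135874980-135875378 on the plus strand, in the intron between exons 7 and 8 of RAB3GAP1, 2029 bp after exon 7 and 3011 bp before exon 8. It is 399 bp long and holds 133 units, of which 96 are TTC and 37 are TGC, with a GC content of 42.6%. Its first 300 bases on GRCh37 (chr2:135874980-135875279) are shown because the nucleosomes with the most reads of the locus lay on them, with the TGC units in capitals.
RAB3GAP1 intron repeat: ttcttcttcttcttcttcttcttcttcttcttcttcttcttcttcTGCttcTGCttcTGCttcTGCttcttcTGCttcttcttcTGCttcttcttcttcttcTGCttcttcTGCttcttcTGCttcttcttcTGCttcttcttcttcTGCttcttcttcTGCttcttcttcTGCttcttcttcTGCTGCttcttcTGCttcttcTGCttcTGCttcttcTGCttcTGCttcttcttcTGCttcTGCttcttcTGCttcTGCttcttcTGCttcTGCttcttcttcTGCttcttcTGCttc
The 147 bases under the mean position of the first of these nucleosomes (chr2:135875026-135875172) hold 14 TGC units, again in capitals, while the 147 bases under another nucleosome of the bin that was found in all 4 libraries (chr2:135870067-135870213), shown for comparison, are not made of these units and have a GC content of 56.5%.
Nucleosome on the repeat: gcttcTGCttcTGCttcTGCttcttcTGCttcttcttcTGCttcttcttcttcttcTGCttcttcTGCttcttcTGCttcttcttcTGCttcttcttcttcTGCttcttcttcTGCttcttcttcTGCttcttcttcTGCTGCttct
Nucleosome outside the repeat: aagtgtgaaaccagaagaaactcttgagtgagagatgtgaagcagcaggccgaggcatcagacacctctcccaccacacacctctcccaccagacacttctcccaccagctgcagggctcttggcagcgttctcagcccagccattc

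Over the repeat, control libraries had 2 nucleosomes each and knockdown libraries had 1 each. In control replicate 1 the dyads were at 135875083 with 184 reads and at 135875258 with 104 reads. In control replicate 2 they were at 135875094 with 320 reads and at 135875255 with 133 reads. Knockdown replicate 1 had a single dyad at 135875106 with 158 reads, and knockdown replicate 2 had a single dyad at 135875113 with 288 reads. The first nucleosome was thus present in every library at a high read count, and the second was listed in both control libraries and in neither knockdown library. The first dyad lay farther into the repeat in both knockdown libraries, by 23 bp between the libraries numbered 1 and by 19 bp between those numbered 2, and its reads had a log2 ratio of knockdown to control, scaled to the median bin, of -0.19.

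The second control dyads lay close to the smallest listed spacing from the knockdown dyads. No pair of dyads in any of the 4 lists was closer than 147 bp. From the dyad of knockdown replicate 1 the second control dyads were 152 and 149 bp away, and from that of knockdown replicate 2 they were 145 and 142 bp away. All these distances lie within a few bp of that minimum. Those from knockdown replicate 1 were above it, and those from knockdown replicate 2 were below it. The part of this spacing in the missing second nucleosome was not tested. The next nucleosome listed in the knockdown libraries was 391 and 386 bp beyond the first dyad.

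**Figure D1:**
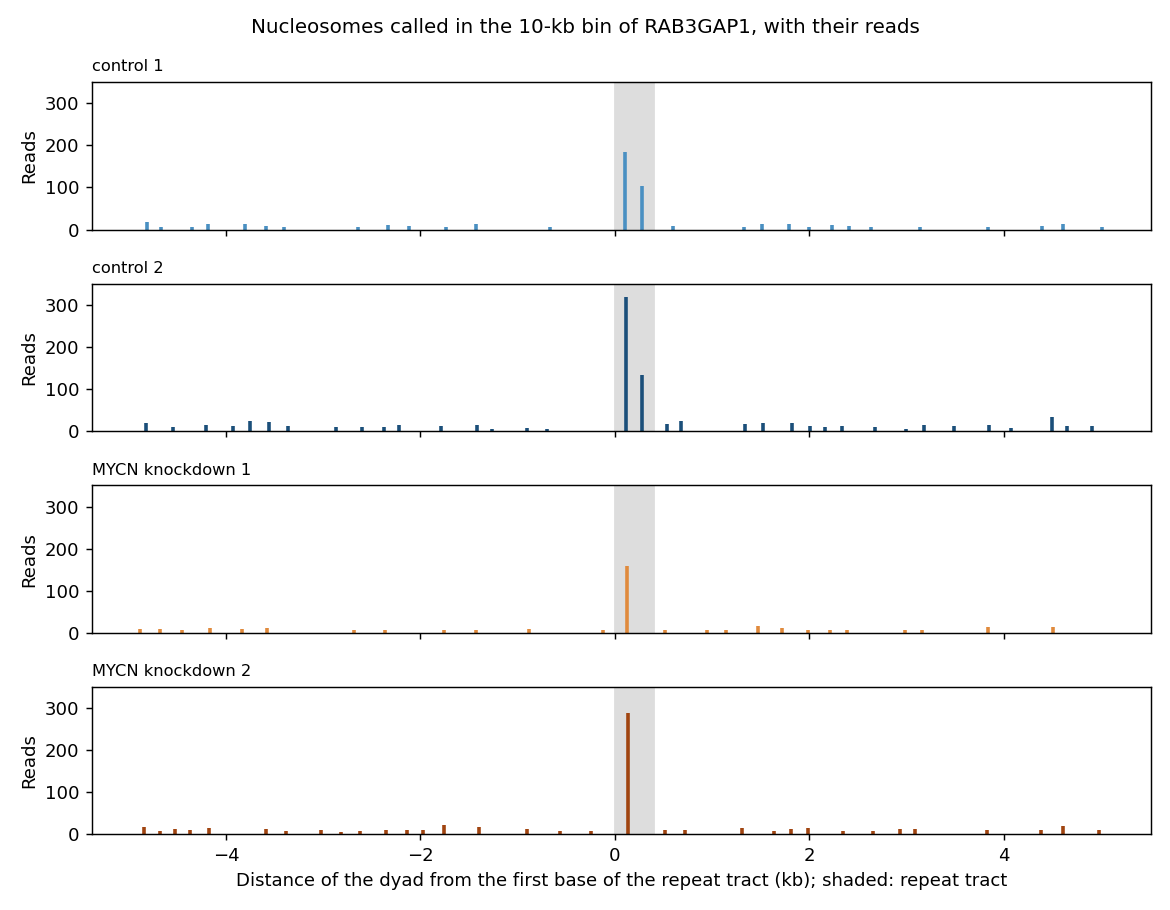
Each line is a nucleosome of the 10-kb bin in RAB3GAP1, placed by the distance of its dyad from the first base of the repeat (kb) with its read count as height, in 1 panel per library, and the shaded band is the repeat. Control libraries show 2 tall lines in the band and knockdown libraries 1, and every other nucleosome of the bin is low.

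These were the nucleosomes with the most reads of the locus in all 4 libraries. The highest was 20.4-fold over the median nucleosome of the locus in control replicate 1, 26.7-fold in control replicate 2, 17.6-fold in knockdown replicate 1 and 24.0-fold in knockdown replicate 2. Outside the repeat the highest nucleosome of the locus held 30, 36, 20 and 33 reads in the same order. In the whole genome, 0.0286% to 0.0414% of the nucleosomes of a library held as many reads as the highest on the repeat. Its fuzziness was ordinary, from 34.31 to 36.05 bp, beside a median of 33.68 to 35.45 bp over the locus.

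The repeat was the longest of its kind in the reference genome. A search for runs of TTC and TGC units of at least 90 bp on either strand gave 41, and the next longest were 186 bp. None of the other 40 held as many reads in any library. Their highest nucleosome had a median of 6 and 9 reads in the controls and of 7 and 11 reads after knockdown, and 17, 13, 16 and 10 of them had no nucleosome listed. The highest after the RAB3GAP1 repeat was chr7:84320420-84320605, a 186-bp run with 7 TGC units, which held 65 reads in control replicate 1, 85 in control replicate 2, 52 in knockdown replicate 1 and 95 in knockdown replicate 2. This run was lower on knockdown between libraries numbered 1 and higher between those numbered 2. A 186-bp run of TTC units alone held 12 to 15 reads. The copies of the repeat in BE(2)C may differ in length from the reference, and reads within a repeat can be placed in more than 1 way; neither was tested.

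**Figure D2:**
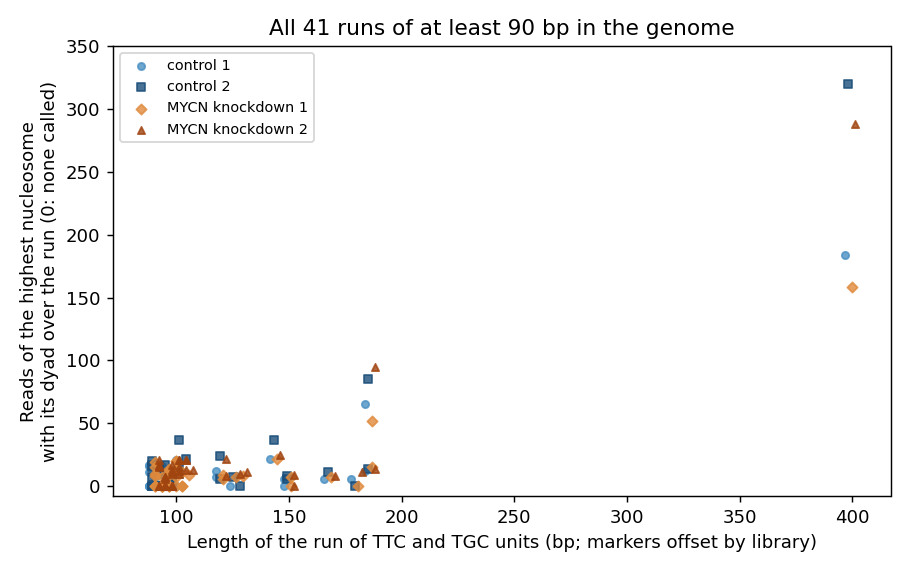
Each marker is 1 of the 41 runs of TTC and TGC units of at least 90 bp in 1 library, with the length of the run (bp) across and the reads of its highest nucleosome upward (0 where none was listed). The 399-bp run of RAB3GAP1 stands alone at 158 to 320 reads, and no other run exceeds 95.

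The 10-kb bin held 524 reads in control replicate 1, 904 in control replicate 2, 360 in knockdown replicate 1 and 646 in knockdown replicate 2. Relative to the median 10-kb bin of the same library this was a level of 1.06, 1.11, 0.72 and 0.79, so both knockdown libraries were below both controls. The log2 ratio of the knockdown to the control mean level was -0.52, with -0.56 between the libraries numbered 1 and -0.48 between those numbered 2. Only 121 of 284468 bins in the genome (0.0425%) had a lower ratio. The locus was chosen for this value, so it is given as a description. The repeat carried 288 of the reads in control replicate 1 (55.0%), 453 in control replicate 2 (50.1%), 158 in knockdown replicate 1 (43.9%) and 288 in knockdown replicate 2 (44.6%). Without the nucleosomes on the repeat the levels were 0.48, 0.55, 0.40 and 0.44, and the log2 ratio was -0.29, with -0.24 and -0.33 by number. The rest of the bin was below the median bin of the locus in every library. It was lower in both knockdown libraries than in both controls, as were 14.9% of all bins tested on TMM-scaled counts. In the edgeR fit without the nucleosomes on the repeat its log2 change was -0.28 (SE 0.21), and it was not called.

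Of the 12 nucleosomes of the bin that were matched in all 4 libraries within 73 bp, the one on the repeat held 950 reads in all. The 4 with the most reads after it held 53 to 65. At the mean dyad 135870140, a nucleosome outside the repeat held 19, 20, 8 and 18 reads and had the lowest log2 ratio of the 12, -0.72. At 135873220 another held 7, 11, 7 and 21 reads and had the highest ratio, 0.53. The first had fewer reads after knockdown at both replicate numbers, and the other had equal reads at number 1 and more at number 2.

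The other 76 bins over the 4 genes did not share the difference of the repeat bin. Their log2 ratios ran from -0.25 to 0.26 with a median of -0.01. The ratio was below 0 at both replicate numbers in 18 bins, above 0 at both in 19, and of opposite sign in 39. On TMM-scaled counts both knockdown libraries were below both controls in 6 of the 76, where 14.9% of all bins tested were, and above both in 4, where 15.4% of all bins were. With edgeR's quasi-likelihood test and Benjamini-Hochberg adjustment, 0 of the 77 bins were called at an adjusted p under 0.05, as were 0% of 284468 bins tested in the genome, of which 9391 had an unadjusted p under 0.05.

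**Figure D3:**
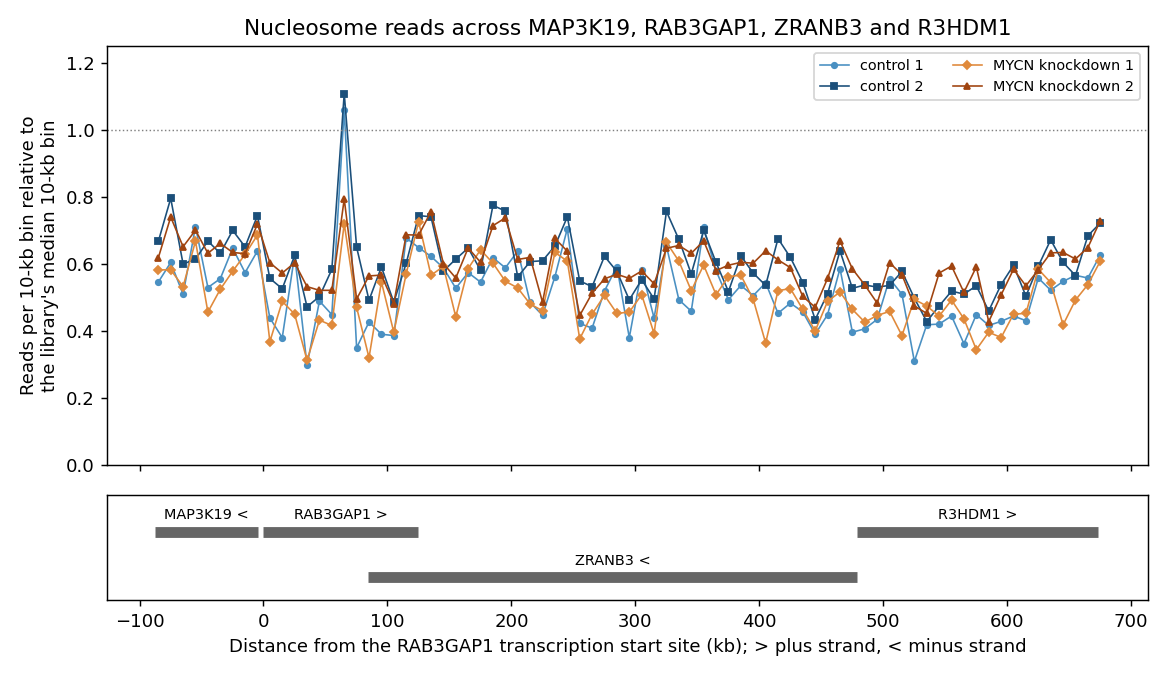
Reads per 10-kb bin relative to the median 10-kb bin of the library, by the distance of the bin from the RAB3GAP1 transcription start site (kb), with 1 line per library and the 4 genes drawn below. The bin with the repeat reaches 1.06 and 1.11 in the controls and 0.72 and 0.79 after knockdown, and the other bins have mean levels between 0.40 and 0.70.

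In each gene the bins with the lowest and highest fitted change are given as a description of the spread. In RAB3GAP1 the lowest of 14 was the repeat bin and the highest was chr2:135820001-135830000, where the controls held 188 and 429 reads and the knockdown libraries 244 and 466 (log2 change 0.23, SE 0.20). In MAP3K19 the lowest of 9 was chr2:135780001-135790000 (log2 change -0.14, SE 0.14) and the highest chr2:135740001-135750000 (0.11, SE 0.17). In ZRANB3 the lowest of 40 was chr2:136060001-136070000 (-0.23, SE 0.22) and the highest chr2:136100001-136110000 (0.22, SE 0.21). In R3HDM1 the lowest of 21 was chr2:136320001-136330000 (-0.17, SE 0.20), and the highest was its neighbour chr2:136330001-136340000 (0.26, SE 0.22), which held 153 and 406 reads in the controls and 247 and 386 after knockdown.

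The read level of the locus was below that of the 2 Mb on either side in all 4 libraries. The median bin of the locus had a level of 0.51 in control replicate 1, 0.59 in control replicate 2, 0.49 in knockdown replicate 1 and 0.60 in knockdown replicate 2 (mean 0.549 ± 0.0549, SD, n = 4), which put it at the 9.44th percentile of all bins. The 2 Mb before the locus had a mean level of 0.626 ± 0.0261 and the 2 Mb after it 0.592 ± 0.0254. The long arm of chromosome 2 as a whole was at 0.664 ± 0.0233 and the short arm, which carries MYCN, at 0.943 ± 0.023. Against bins of like GC content, 8 windows of 100 kb inside the locus had mean levels of 0.543 to 0.604, within the 0.524 to 0.638 of 38 windows in the flanks. Across the 76 bins without the repeat the mean level rose with GC content (Pearson's r = 0.801 across bins of the same libraries, a description). The level also depends on the cut-off of reads per nucleosome. On nucleosomes of at least 12 reads it was 0.21 and 0.44 in control replicates 1 and 2. In knockdown replicates 1 and 2 it was then 0.20 and 0.43. The part of the cut-off in the low level was not tested. The number of copies of a segment and the nucleosome reads per copy cannot be told apart here.

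By gene, the read level per bp was highest over MAP3K19 and lowest over R3HDM1, and no gene differed between groups by more than the spread between libraries. RAB3GAP1 (ENSG00000115839.19_9, chr2:135809859-135934237, plus strand) had levels of 0.50 and 0.60 in control replicates 1 and 2, and of 0.47 and 0.58 in the knockdown libraries. MAP3K19 (ENSG00000176601.14_15, chr2:135722055-135805038, minus strand) had 0.59 and 0.67 against 0.57 and 0.66. ZRANB3 (ENSG00000121988.18_12, chr2:135894486-136288788, minus strand) had 0.53 and 0.60 against 0.52 and 0.60. R3HDM1 (ENSG00000048991.18_13, chr2:136289025-136482840, plus strand) had 0.47 and 0.55 against 0.46 and 0.56. The libraries numbered 2 were higher than those numbered 1 in every gene and both groups, so the spread holds a difference that both groups share. Neighbours in the order of the genes were closer than this spread. RAB3GAP1 and ZRANB3 overlap on opposite strands by 39752 bp, and reads there were counted for both. Among 6794 genes of at least 50 kb, with a median level of 1.05 to 1.07, the 4 genes were at percentiles 6.14, 12.8, 7.74 and 4.05 in the order above.

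In gene bodies, 0 of the 4 genes were called by edgeR's quasi-likelihood test at an adjusted p under 0.05, beside 0% of all 20088 gene bodies tested, of which 418 had an unadjusted p under 0.05. Log2 changes from control to knockdown were -0.03 (SE 0.12) for RAB3GAP1, 0.02 (SE 0.09) for MAP3K19, 0.03 (SE 0.08) for ZRANB3 and 0.05 (SE 0.11) for R3HDM1. These errors include the difference between library numbers. With the replicate number as a block in the fit they were 0.030, 0.032, 0.014 and 0.028 in the same order. Without the nucleosomes on the repeat the change of RAB3GAP1 was 0.01 (SE 0.13). With the repeat kept, the change of RAB3GAP1 ran from -0.20 without knockdown replicate 2 to 0.11 without knockdown replicate 1, and it was also 0.11 without control replicate 2. Both knockdown libraries were below both controls in 15.7% of gene bodies and above both in 15.6%, and neither held for any of the 4.

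The distance between nucleosomes differed between groups by less than between the control libraries in every gene. Over RAB3GAP1 and ZRANB3 it differed by more than between the knockdown libraries. Neighbouring dyads 100 to 300 bp apart had a mean distance of 207.0 ± 5.09 bp in control and 209.8 ± 0.424 bp in knockdown over RAB3GAP1 (SD, n = 2 each), and of 209.9 ± 1.84 and 210.1 ± 3.11 bp over MAP3K19. Over ZRANB3 the distance was 211.7 ± 3.25 and 211.0 ± 0.424 bp, and over R3HDM1 209.1 ± 4.1 and 209.3 ± 0.849 bp. The mean fuzziness over RAB3GAP1 was 32.85 and 35.01 bp in the controls and 32.67 and 35.22 bp after knockdown, and over MAP3K19 34.19 and 35.81 bp against 33.51 and 35.40 bp. Over ZRANB3 it was 33.17 and 34.86 bp against 33.19 and 35.00 bp, and over R3HDM1 33.48 and 34.70 bp against 33.18 and 34.80 bp. The largest difference between group means was -0.55 bp, for MAP3K19, while libraries of 1 group differed by over 1 bp in every gene. In the limma fit of mean fuzziness 0 of the 4 genes were called at an adjusted p under 0.05, beside 0.00516% (1 gene) of 19392 tested. Both knockdown libraries were below both controls in 3.97% of these genes and above both in 2.91%, and neither held for any of the 4.

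**Figure D4:**
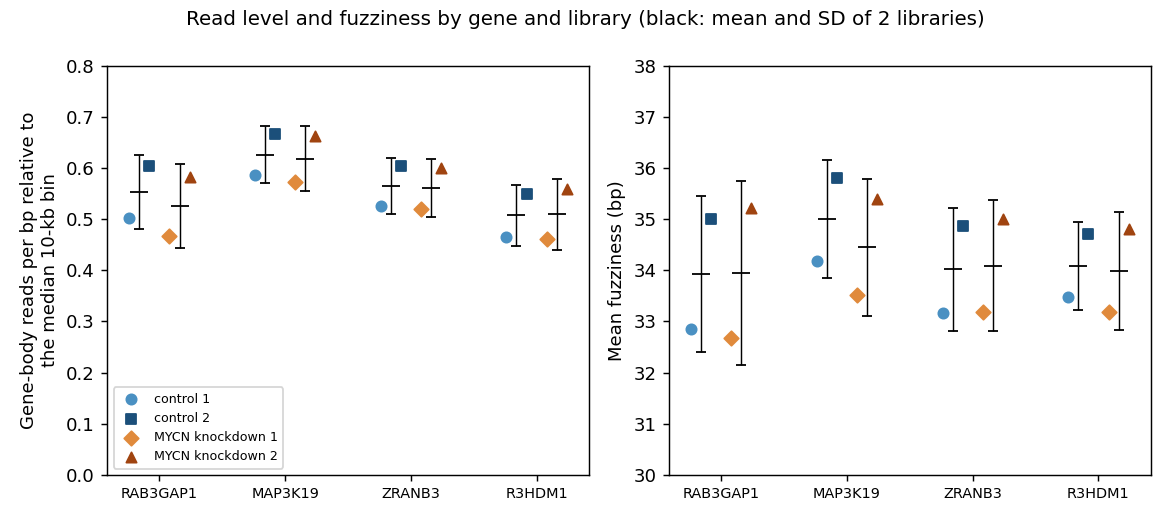
Read level per bp relative to the median 10-kb bin (left) and mean fuzziness in bp, on an axis that starts at 30 (right), for the 4 genes, with 1 marker per library and the mean and SD of the 2 libraries of a group in black. Libraries numbered 2 are above those numbered 1 in every gene, and the groups overlap.

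Exons of R3HDM1 held more reads per kb than its introns in all 4 libraries, with ratios of 2.11, 1.63, 1.68 and 1.63 over the canonical transcript of 27 exons. The ratios were 1.39, 1.18, 1.59 and 1.19 for ZRANB3 and 1.30, 1.01, 0.76 and 1.35 for RAB3GAP1. For MAP3K19 they were 0.86, 0.99, 1.06 and 0.88. Only R3HDM1 and ZRANB3 were thus above 1 in every library, and no gene had both knockdown libraries below or above both controls. The ratios were taken for these 4 genes only, so no share over all genes stands beside this. The introns of RAB3GAP1 include the repeat and its reads.

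Few dyads of the locus lay at the same place in all 4 lists. A nucleosome was matched in all 4 lists for 802 of the 2058 nucleosomes of control replicate 1 (39.0%), with a median range of 50 bp between the 4 dyads, and in 31 of these the dyads lay within 10 bp. Paired by mutual closeness within 116 bp, 28.9% of the nucleosomes of control replicate 1 and knockdown replicate 1 together had no partner, and 18.3% of those of control replicate 2 and knockdown replicate 2. The replicates of a group left 26.5% (control) and 28.1% (knockdown) without a partner. The replicate pairs join lists of unequal length, 2058 with 2923 and 2055 with 2927 nucleosomes, so they are no like reference for the pairs across groups. The matched nucleosome with the lowest fuzziness (mean 23.3 bp) lay between MAP3K19 and RAB3GAP1, at the mean dyad 135809191, and held 15, 19, 16 and 18 reads. The most tightly placed of the 5 sharpest was in ZRANB3, with dyads at 136278278, 136278276, 136278276 and 136278271 and 17, 29, 14 and 21 reads.

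The promoters of RAB3GAP1, ZRANB3 and R3HDM1 met a rule for a nucleosome-free start site in every list, whereas that of MAP3K19 met it in 1 list only, where a nucleosome still covered the start site. A promoter was called nucleosome-free when no nucleosome lay by at least 80% within a window that runs from 200 bp before the transcription start site (TSS) to 50 bp after it. By this rule the window was free in all 4 libraries at RAB3GAP1 (chr2:135809662-135809912), ZRANB3 (chr2:136288738-136288988) and R3HDM1 (chr2:136288854-136289104). The share of all promoters that meet the rule is not given, so this is a description. Over all genes the nearest dyads on either side of the TSS were a median of 285 to 325 bp apart. In control replicates 1 and 2, then knockdown replicates 1 and 2, they were 980, 302, 443 and 476 bp apart at RAB3GAP1. At MAP3K19 they were 225, 406, 194 and 218 bp apart. At ZRANB3 the distance was 1211 bp in control replicate 2, and 527 and 516 bp after knockdown. At R3HDM1 it was 527 and 516 bp after knockdown. In their other lists a side had no dyad within 1 kb. The whole ZRANB3 promoter had only 2 nucleosomes listed in control replicate 1, so a free window is not shown to be empty. At RAB3GAP1 a nucleosome reached into its upstream edge without meeting the rule in 3 libraries, with dyads at -171 bp from the TSS in control replicate 2, -173 bp in knockdown replicate 1 and -189 bp in knockdown replicate 2. At MAP3K19 (chr2:135804967-135805217) it held 1 nucleosome with 10 reads in control replicate 1, 8 in control replicate 2 and 14 in knockdown replicate 1, and none in knockdown replicate 2, where a nucleosome of 13 reads was centred 17 bp after the TSS. The ZRANB3 and R3HDM1 start sites lie 266 bp apart and point away from each other, so their windows overlap. MAP3K19 and RAB3GAP1 start 4845 bp apart, also in opposite directions.

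The sequence before these start sites differed too. The 200 bases upstream of the TSS on GRCh37, on the strand of the gene, are shown for RAB3GAP1 (chr2:135809662-135809861) and MAP3K19 (chr2:135805018-135805217) because they are the ends of the same intergenic stretch, of which that of RAB3GAP1 met the rule in every list, with every CG in capitals.
RAB3GAP1 upstream: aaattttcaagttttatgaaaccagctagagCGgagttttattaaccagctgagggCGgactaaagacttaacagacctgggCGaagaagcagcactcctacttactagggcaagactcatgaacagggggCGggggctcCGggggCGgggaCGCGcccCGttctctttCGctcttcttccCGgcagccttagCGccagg
MAP3K19 upstream: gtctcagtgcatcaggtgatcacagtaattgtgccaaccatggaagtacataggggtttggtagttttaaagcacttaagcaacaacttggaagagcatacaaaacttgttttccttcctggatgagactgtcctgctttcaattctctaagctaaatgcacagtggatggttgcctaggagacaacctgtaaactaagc
RAB3GAP1 has 12 CG dinucleotides there and MAP3K19 has 0, while ZRANB3 has 8 and R3HDM1 has 11, beside a median of 15 over all 20163 genes. The E-box CACGTG, the core motif of MYC family proteins, which reads the same on both strands, was in none of the 4 stretches, and 6.94% of all such stretches hold it. The absence of these letters from a 200-base window says nothing of binding elsewhere.

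**Figure D5:**
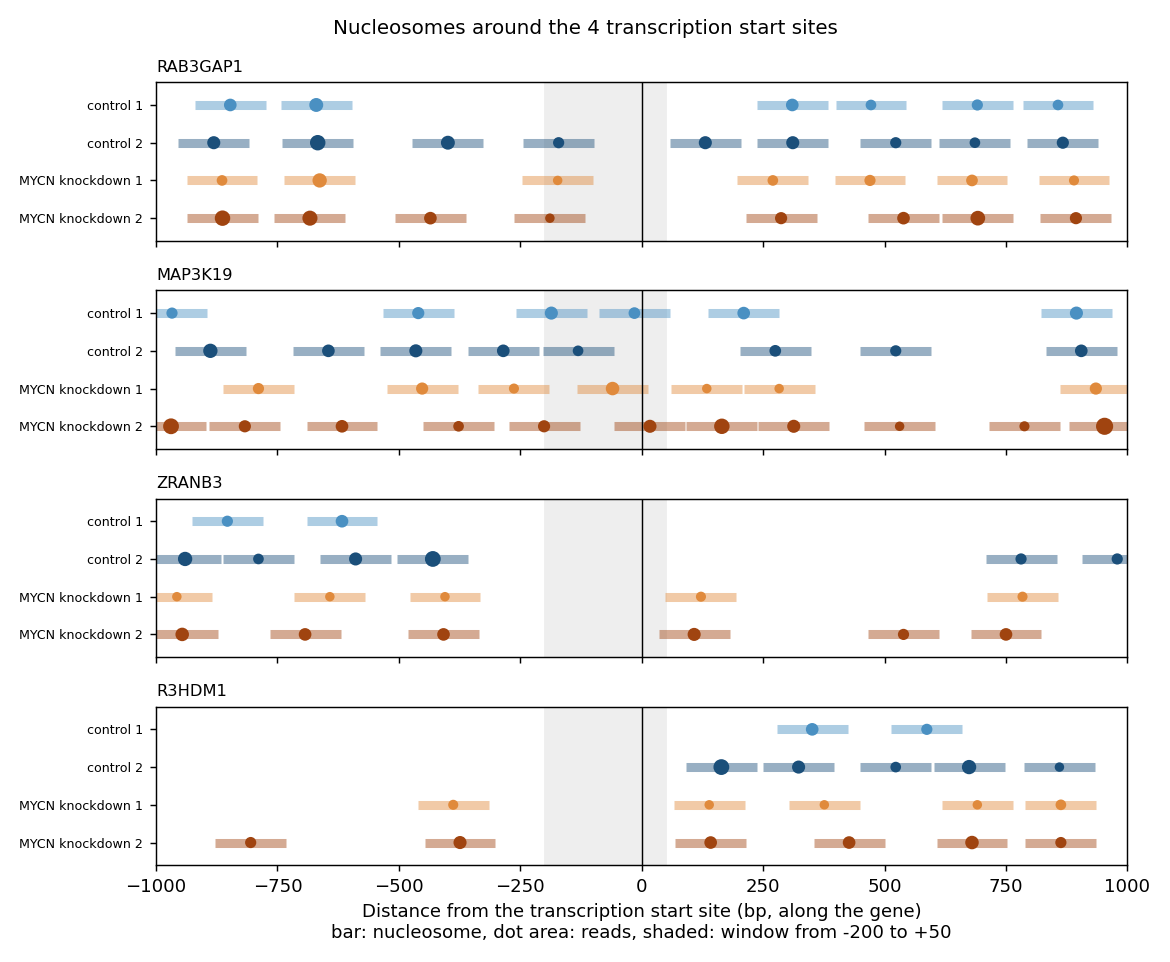
Nucleosomes within 1 kb of the 4 transcription start sites, as bars with a dot at the dyad whose area follows the read count, in 1 row per library, with the same window (200 bp before to 50 bp after the start site) shaded. No bar fills the window at RAB3GAP1, ZRANB3 or R3HDM1, and at MAP3K19 nucleosomes lie in it or across its edge.

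Promoter reads were summed over the 2 kb before and the 1 kb after the TSS. RAB3GAP1 held 117 reads in control replicate 1, 171 in control replicate 2, 100 in knockdown replicate 1 and 172 in knockdown replicate 2. In the same order MAP3K19 held 93, 169, 92 and 184 reads. ZRANB3 held 21, 110, 53 and 101 reads and R3HDM1 42, 119, 61 and 131 reads, and these windows share reads. Control replicate 1 was lowest at ZRANB3 and R3HDM1, also after scaling. With edgeR's quasi-likelihood test 0 of the 4 promoters were called, beside 0% of 20106 tested, of which 634 had an unadjusted p under 0.05. Log2 changes were -0.06 (SE 0.19) for RAB3GAP1, 0.10 (SE 0.21) for MAP3K19, 0.36 (SE 0.42) for ZRANB3 and 0.32 (SE 0.34) for R3HDM1. Without control replicate 1 the change of ZRANB3 was -0.19 (SE 0.39) and that of R3HDM1 was 0.004 (SE 0.35), and without control replicate 2 they were 1.50 (SE 0.57) and 0.80 (SE 0.43). Both knockdown libraries were below both controls in 15.3% of promoters and above both in 15%, and neither held for any of the 4.

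Genes whose products work with those of the locus were listed by function. Of 15 genes of the RAB3 cycle, which include the RAB3 GTPases, the partner subunit RAB3GAP2 and RAB3 effectors, 0 were called in gene bodies by edgeR at an adjusted p under 0.05, and the log2 change was above 0 in 8 and below 0 in 7, with a median of 0.01 beside -0.003 over all genes tested. The highest values were 0.15 (SE 0.08) for RAB18, a GTPase of lipid droplets and the endoplasmic reticulum, and 0.10 (SE 0.04) for RAB3GAP2. The lowest were -0.13 (SE 0.07) for RAB3D and -0.09 (SE 0.09) for RAB3A, both RAB3 GTPases. Of 12 genes that act on replication forks beside ZRANB3, 0 were called, 7 were above 0 and 5 below, and the median was 0.02. The highest were 0.10 (SE 0.08) for the helicase RECQL and 0.08 (SE 0.07) for the translocase HLTF, and the lowest was -0.06 (SE 0.04) for SMARCAL1, a fork-remodelling enzyme.

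The genes around the locus spanned a wider range of levels than its own 4 genes. Of 9 protein-coding neighbours within 1 Mb, the mean level per bp over 4 libraries was lowest for CCNT2 (0.446), which encodes a cyclin of a transcription elongation kinase, and highest for LCT (0.80), which encodes intestinal lactase. Values between them included UBXN4 (0.543), MGAT5 (0.589), MCM6 (0.605), ACMSD (0.612), CXCR4 (0.675) and TMEM163 (0.708). The genes of at least 50 kb whose scaled gene-body levels were closest to those of RAB3GAP1 over the 4 libraries were NRDC, MED14 and STIL, at Euclidean distances of 0.0405, 0.0422 and 0.0496 on the log2 scale.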

How the data were processed

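The submitters' processing notes name CASAVA 1.9, Trim Galore 0.4.4, Bowtie2 2.2.4 and hg19. Per the study's methods, the authors kept proper pairs of mapping quality above 10, removed duplicates, and called nucleosomes with Genetrack. Those methods pool replicates for further analysis, whereas the deposited lists are 1 per library. Those methods call the occupancy value a normalized read count. The deposited values were taken here as unscaled read counts per nucleosome of 147 bp, being whole numbers from 6 upward with totals that differ between libraries, and every count fit rests on that reading. The total of a list is not the depth of its library. Fuzziness, in bp, was used as the authors deposited it.

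Counts were summed over 10-kb bins, promoters and GENCODE v44lift37 gene bodies and tested with edgeR 4.0.16 (quasi-likelihood, TMM, mean of at least 10 reads, Benjamini-Hochberg adjusted p under 0.05). Mean fuzziness of genes with at least 5 nucleosomes per library was tested with limma 3.58.1. The fits were run on simulated data without an effect of replicate number, so that run does not show how they act on these libraries. Groups came from titles and genotype labels. DESeq2 1.42.0, other scaling, filters, windows, GC correction, a replicate block and leaving out each library were alternatives. The genes and lists were chosen with earlier results of these data known, and the repeat was found after its bin had been seen. Named by rule are the 4 genes, neighbours within 1 Mb, the 2 highest and 2 lowest changes of each list, the 3 genes closest to RAB3GAP1, each gene's extreme bins, and nucleosomes of the bin by reads and change. Some genes that meet this rule are not reported here.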

Additional observations from a re-analysis of the deposited data

How the results depend on the processing

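With 2 libraries a group and few reads per nucleosome, small changes over the 4 genes were not detectable. No value of the repeat bin or of the 4 genes was called in the main fits, so there was no call to reverse. A change of sign without a call was counted as kept. Of 168 values, 151 kept their side of the threshold, stayed within the library spread or, as counts of called features, equalled the main count. Of the rest, 15 moved beyond these limits, and 2 values of the repeat bin passed the threshold, both with a replicate block. For fuzziness and the locus level, leaving out a library could not move a value past the library spread. Those values were kept by construction, so the 151 is no measure of stability. The change of the repeat bin ranged from -0.57 to -0.45 (log2) when each library was left out, and was -0.74 on nucleosomes of at least 12 reads and -0.28 without the nucleosomes on the repeat. The mean level of the locus ranged from 0.531 to 0.567 when each library was left out, was 0.903 against its flanks and 0.321 on nucleosomes of at least 12 reads.

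Same-numbered libraries deviated together from their group means across bins (r = 0.45), promoters (0.294), gene bodies (0.554) and fuzziness (0.125), but the labels say of the 2 pairs only that they share a number. With the replicate number as a block, 88 bins and 2049 gene bodies were called in the genome in place of 0, fuzziness called 0, and with GC correction as well 2 bins and 148 gene bodies. The repeat bin was among the bins called in both fits, with log2 changes of -0.50 and -0.54. It was chosen for its low value, so these calls are no test of it. With the block alone 0 of the 4 genes were called, beside 2049 of 20088 gene bodies in the genome. At that share, 0 of 4 says little about these genes. With each library left out, 0 to 4 bins, 0 to 1 promoters, 0 gene bodies and 0 to 3 genes by fuzziness were called. Fuzziness on nucleosomes of at least 12 reads called 0. DESeq2 called 0 bins, promoters and gene bodies, with 3766, 210 and 59 at an unadjusted p under 0.05. The causes of these differences were not tested.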
